A study of Mus musculus with 6 samples.

Results

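Decorin (Dcn), biglycan (Bgn), asporin (Aspn), lumican (Lum), fibromodulin (Fmod), prolargin (Prelp), osteomodulin (Omd) and osteoglycin (Ogn) are small leucine-rich proteoglycans of the extracellular matrix. These 8 genes were listed by name, not picked by a threshold on a measured value, out of the 52636 genes counted in single cells of mouse retinal pigment epithelium (RPE) and choroid. The cells were dissociated from the RPE/choroid of male C57BL/6J mice aged 12 to 16 months and were grown in culture before they were profiled. There were 3 samples of Dram2 wt/wt mice and 3 samples of Dram2 ko/ko mice. The Dram2 ko/ko mice carried a germline deletion made with CRISPR and a pair of guide RNAs around 1 exon of Dram2, so every cell type carried it. The study calls the function of DRAM2 in cells unclear, with a proposed role in autophagy. Whether a sample came from 1 mouse or from several was not stated, so the p-values measure the spread between these samples only. Batch 2 held a single sample, Dram2 ko/ko replicate 3, and so no Dram2 wt/wt sample.

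These proteins share a core of leucine-rich repeats that binds collagen, and they set the diameter and the spacing of collagen fibrils. Decorin carries a chondroitin or dermatan sulfate chain and also binds TGF-beta and receptor tyrosine kinases. Biglycan, its closest relative, can also be released from the matrix as a ligand of Toll-like receptors. Lumican, fibromodulin, osteomodulin and osteoglycin can carry keratan sulfate, and lumican and osteoglycin are known from the transparent stroma of the cornea. Asporin has no attachment site for such a chain, and prolargin anchors basement membranes to the collagen beneath. In the eye, decorin and biglycan are secreted by fibroblasts of the sclera, the choroid and the cornea.

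Of the 8 genes, 7 lie in 3 groups of neighbours on GRCm38. Dcn (chr10:97479609-97518143, plus strand) and Lum (chr10:97565128-97572703, plus strand) are 47.0 kb apart. Prelp (chr1:133910304-133921414, minus strand) and Fmod (chr1:134037254-134048277, plus strand) are 116 kb apart. Aspn (chr13:49544443-49567565), Omd (chr13:49582462-49592822) and Ogn (chr13:49608046-49624501) follow each other on the plus strand with gaps of 14.9 and 15.2 kb, all of them inside Cenpp, which is transcribed from the other strand. Bgn lies alone on the X chromosome (chrX:73483602-73495933, plus strand).

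RefSeq start regions (GRCm38.p6), each from 250 bases before to 50 bases after the annotated start, matched 6 of the 8 genes, all except Dcn and Lum. Shown are that of Bgn, which had the highest level of the 8 genes, and those of the neighbours Aspn, Omd and Ogn, whose levels differed widely. They are chrX:73483351-73483650, chr13:49544193-49544492, chr13:49582212-49582511 and chr13:49607765-49608064, all on the plus strand, and capitals mark each match of TATAAA or GGGCGG on either strand.
Bgn: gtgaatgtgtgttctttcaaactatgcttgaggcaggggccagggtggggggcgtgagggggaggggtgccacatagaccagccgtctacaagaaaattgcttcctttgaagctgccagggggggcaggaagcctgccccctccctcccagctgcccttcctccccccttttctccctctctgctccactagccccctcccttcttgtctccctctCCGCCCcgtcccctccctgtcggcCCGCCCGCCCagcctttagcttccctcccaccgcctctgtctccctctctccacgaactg
Aspn: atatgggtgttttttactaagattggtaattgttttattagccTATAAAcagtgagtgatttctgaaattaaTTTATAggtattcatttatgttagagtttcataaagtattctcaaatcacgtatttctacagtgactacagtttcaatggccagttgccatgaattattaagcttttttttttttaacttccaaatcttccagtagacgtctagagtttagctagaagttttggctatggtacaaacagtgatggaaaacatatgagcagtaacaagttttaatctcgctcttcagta
Omd: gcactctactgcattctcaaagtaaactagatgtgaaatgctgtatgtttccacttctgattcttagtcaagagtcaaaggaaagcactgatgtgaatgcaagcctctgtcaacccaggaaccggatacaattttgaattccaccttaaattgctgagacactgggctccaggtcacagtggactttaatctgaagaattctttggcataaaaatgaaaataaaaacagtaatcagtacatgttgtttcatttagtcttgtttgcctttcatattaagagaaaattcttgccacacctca
Ogn: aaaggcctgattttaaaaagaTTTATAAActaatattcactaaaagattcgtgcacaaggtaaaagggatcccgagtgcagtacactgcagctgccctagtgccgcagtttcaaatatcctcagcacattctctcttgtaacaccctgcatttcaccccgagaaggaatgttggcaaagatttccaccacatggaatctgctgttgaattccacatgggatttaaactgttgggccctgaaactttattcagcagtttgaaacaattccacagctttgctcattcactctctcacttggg

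Of the 6 start regions that of Bgn was the richest in G and C, with 63.7% of its bases, against 31% in Aspn, 37.7% in Omd, 42.3% in Ogn and a median of 52.7% over 32851 start regions. It held 3 matches of GGGCGG, 2 of which overlap, a motif found in 35.7% of the 32851 regions. No match of GGGCGG was found in those of Fmod, Prelp, Aspn, Omd and Ogn. TATAAA had 2 matches in Aspn and 2 in Ogn, where they overlap on opposite strands, and 13.6% of the 32851 regions held it. The matches describe these windows and were not related to binding of any factor.

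The deposited table held 25428 cells, from 2140 to 6648 per sample, with 96808998 to 122746184 molecules counted per sample. A molecule is counted once by its unique molecular identifier (UMI), read from the 3′ end of the RNA, so a count does not depend on the length of the gene. Levels are in CPM, a gene's UMIs divided by all UMIs of the same cells and scaled up in the usual way, and are given as mean ± SD over samples. Cell type names are those deposited by the authors, and the sums of a cell type were used where a sample held 10 or more of its cells, which was so in 4 samples for Myeloid and in 6 for every other type. Levels at a fixed makeup of cell types, given below, had no such minimum. All 6 RPE-named sums held the 12 RPE markers searched (297 to 1115 CPM in all, against 5.62 to 11.2 in Fibroblast), and the 6 endothelial markers summed to 6279 to 10772 CPM in Endothelial cells. For the cells named Pericyte, part of the markers went against the name. The pericyte markers Kcnj8, Higd1b and Ndufa4l2 were at 0 there, while 6 of 6 Schwann cell markers were found at 970 to 2429 CPM in sum, against 3.57 to 4.80 in Fibroblast. Levels of the other pericyte markers searched (Rgs5, Cspg4, Pdgfrb, Abcc9 and Notch3) are not given here. They are called Pericyte-named here. Dram2 itself was at 37.1 ± 3.23 CPM (Dram2 wt/wt) and 29.7 ± 1.26 CPM (Dram2 ko/ko) (log2 fold change -0.30, SE 0.087, voom-limma adjusted p 0.301), and a 3′ count does not read the deleted exon, so it is no check of the genotype.

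Bgn and Dcn made up most of the family's RNA. Over all 669049435 UMIs of the 6 samples, Bgn had 1159185, Dcn 457006, Lum 56719 and Ogn 13416, and the other 4 genes had 200 (Aspn) to 1139 (Prelp). In the median sample Bgn took 68.4% of the UMIs of the 8 genes, Dcn 27.2%, Lum 3.32% and Ogn 0.717%. The level in whole samples was 1731 ± 109 CPM for Bgn, 688 ± 88.7 for Dcn, 85.3 ± 16.4 for Lum and 19.8 ± 8.86 for Ogn. Prelp (1.70 ± 0.696 CPM), Fmod (1.22 ± 1.02), Omd (0.324 ± 0.0356) and Aspn (0.297 ± 0.0457) were near the bottom. The order of the first 4 genes was the same in every sample, while Prelp and Fmod overlapped, and so did Omd and Aspn. The neighbours on chromosome 13 thus spanned a range from Ogn down to Omd and Aspn, below 1 CPM.

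Dcn was highest in Fibroblast 2, a deposited fibroblast type of 3019 cells. Its level there was 1994, 2869 and 2731 CPM (Dram2 wt/wt) and 2189, 2306 and 3128 CPM (Dram2 ko/ko). In Fibroblast cells it was 539, 535 and 525 CPM and 690, 561 and 629 CPM in the same order. Every sample had more Dcn in Fibroblast 2, by a median factor of 4.54 (3.17 to 5.36), and the ranges lay apart. Clusters and names were made by the study from the same counts, so this and the following differences between cell types are descriptions, not tests. Below Fibroblast 2 came Fibroblast (580 ± 65.7 CPM), Myeloid (458 ± 286, n = 4) and Fibroblast proliferating (453 ± 46.4). The Myeloid range overlapped with both, while Fibroblast proliferating cells lay below Fibroblast cells in 6 of 6 samples, with ranges just apart (up to 524.5 and from 524.8 CPM). Endothelial (130 ± 174), Fibroblast-like (118 ± 26.3), Pericyte-named (51.8 ± 55.5) and RPE (39.0 ± 28.1) cells overlapped too. Fibroblast-like cells were shallow, with a median of 4825 UMIs per cell against 26108 in Fibroblast.

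Lum, a class relative of Fmod, followed nearly the same order as Dcn at a lower level. In Fibroblast 2 it was at 250, 248 and 307 CPM (Dram2 wt/wt) and 248, 291 and 279 CPM (Dram2 ko/ko), and in Fibroblast at 87.9, 72.7 and 63.0 CPM and 89.1, 99.7 and 90.8 CPM. The factor between the 2 types was 2.99 in the median sample (2.78 to 4.87), and the ranges lay apart. Fibroblast proliferating cells had 44.2 ± 6.94 CPM, a median of 0.543 times the level of Fibroblast cells, lower in 6 of 6 samples. Fibroblast-like cells had 18.5 CPM, and Endothelial, RPE and Pericyte-named cells had 10.2, 7.08 and 2.61 CPM. Lum was the gene most like Dcn over the 46 sums of a sample and a cell type (Pearson r 0.946 of log2(CPM + 1)), and Dcn the one most like Lum, among 8929 genes with a mean of 20 CPM or more in some type. The next most like Dcn were Pla1a (0.938) and Fgf7 (0.920), a fibroblast growth factor. Next to Lum stood Pla1a (0.924) and Pdgfra (0.906), the receptor of platelet-derived growth factor. The 46 sums share 6 libraries and their 8 cell type compositions, so r only describes them, and over the means of the 8 types r was 0.965 but neither gene was among the 3 most like the other.

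Bgn ran the other way between the fibroblast types. It was at 1799, 2100 and 1996 CPM in Fibroblast cells of Dram2 wt/wt and at 1963, 1716 and 2177 CPM in those of Dram2 ko/ko samples. Fibroblast 2 cells had 1070, 1192 and 1067 CPM and 1052, 1044 and 1295 CPM, a median of 0.581 times the Fibroblast level, lower in 6 of 6 samples with ranges apart. Fibroblast proliferating cells (1923 ± 145 CPM) overlapped with Fibroblast cells (1959 ± 175). The ratio of Bgn to Dcn was therefore 3.40 in Fibroblast (2.85 to 3.92), 4.35 in Fibroblast proliferating and 0.434 in Fibroblast 2 (0.391 to 0.537). Fibroblast 2 was the only one of the 8 types in which the mean of Dcn was above that of Bgn, with 64.7% of the UMIs of the 8 genes against 21.7% in Fibroblast. Fibroblast 2 also had the lowest sum of 8 fibroblast markers, Mgp among them, of the types named fibroblast, 973 to 1791 CPM against 4736 to 5782 CPM in Fibroblast. The sum does not speak for each marker, since Pdgfra, also on that list, followed Dcn over the means of the 8 types (r 0.977). Mgp itself, a matrix protein that inhibits calcification, was at 0.272 times the level of Dcn in Fibroblast 2 and at 5.13 times in Fibroblast.

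Bgn RNA was found in every type, so shares of cells were compared at 1 depth. After each cell was thinned to 4000 UMIs, which left out 552 of 25428 cells (358 of them Fibroblast-like), Bgn was seen in 98.2% ± 0.314 of Fibroblast, 99.5% ± 0.201 of Fibroblast proliferating and 80.1% ± 2.74 of Fibroblast 2 cells. Without thinning the shares were 99.8%, 99.97% and 91.3%. Pericyte-named cells had the lowest thinned share, 30.2% ± 11.4, and RPE cells had 35.4% ± 18 (62.1% and 66.5% unthinned). Shares in these types served as the background for the shares of cells with a UMI of Bgn, Dcn and Lum. Dcn was seen in 85.5% ± 2.5 of Fibroblast 2, 48.8% ± 2.10 of Fibroblast and 9.77% ± 7.40 of RPE cells at 4000 UMIs, and in 95.0%, 79.0% and 31.2% unthinned. Lum was seen in 44.4%, 15.6% and 2.96% of the same types (72.1%, 37.7% and 9.17% unthinned). The median cell held 18394 UMIs in Fibroblast 2, 26108 in Fibroblast, 22906 in RPE and 13598 in the Pericyte-named type.

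**Figure D1:**
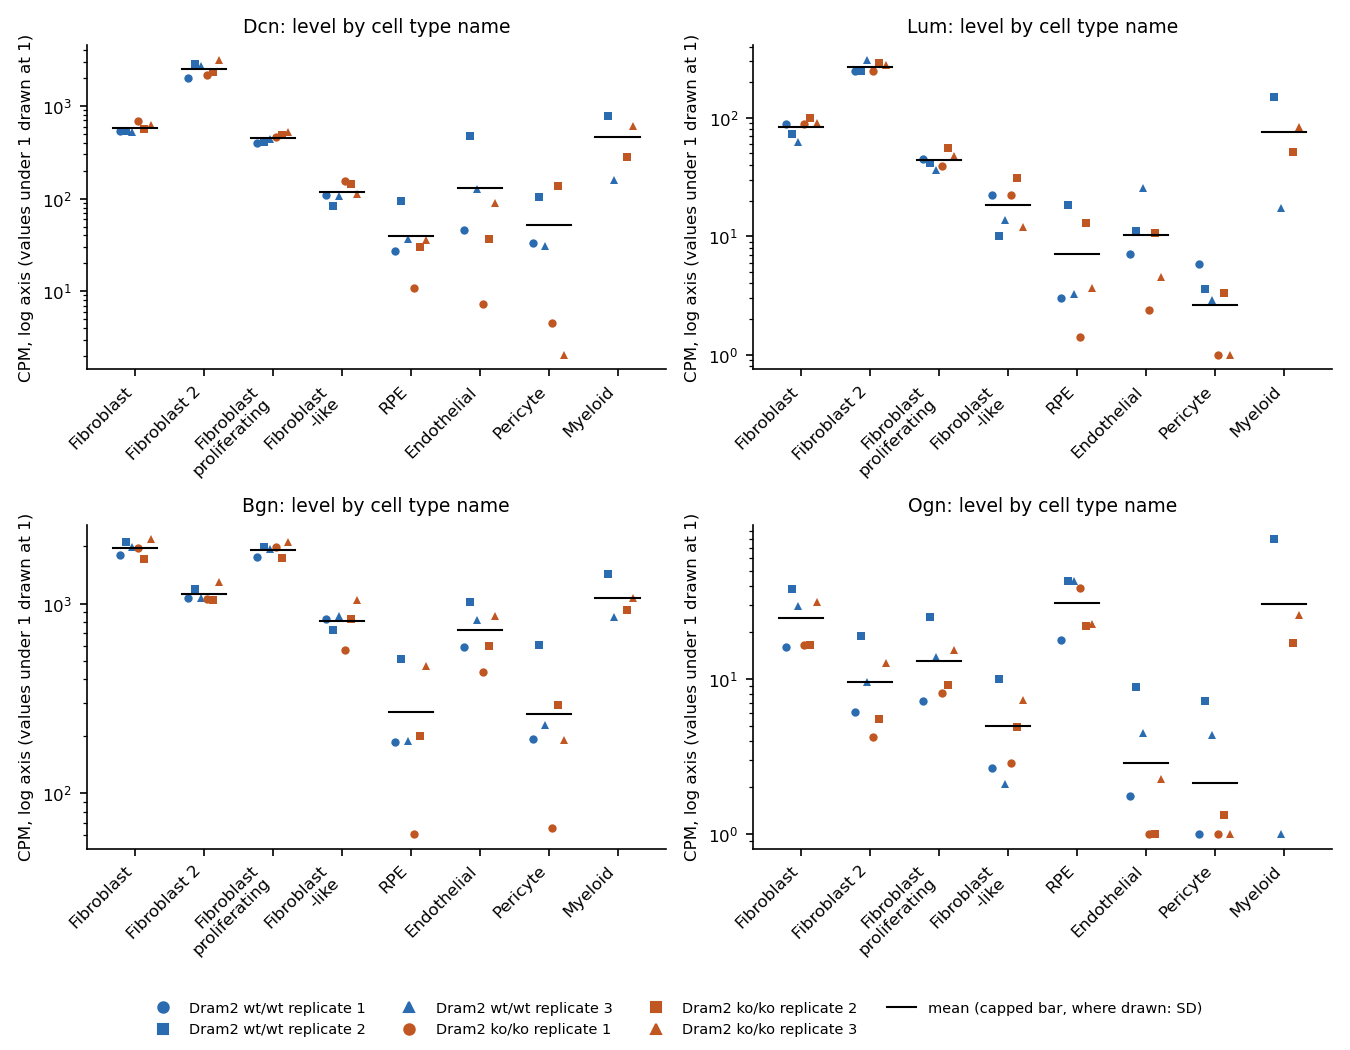
Level of Dcn, Lum, Bgn and Ogn (CPM, log axis, values under 1 drawn at 1) in the sums of 8 cell types, with a point per sample and a line at the mean of the samples, 4 for Myeloid and 6 for the others. Dcn and Lum stand apart in Fibroblast 2, where Bgn is lower than in Fibroblast and Fibroblast proliferating, and the Ogn values of RPE and Fibroblast overlap.

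The small non-fibroblast types held these genes at levels that varied between samples. In Endothelial cells Dcn was at 45.6, 474 and 128 CPM (Dram2 wt/wt) and 7.20, 36.5 and 90.1 CPM (Dram2 ko/ko). Fibroblast markers were at 2183 to 3981 CPM in sum in these cells, with 8 of 8 found, the highest in Dram2 wt/wt replicate 2, which also had the highest Dcn. In RPE cells Dcn was at 27.3, 93.2 and 36.5 CPM and at 10.9, 30.2 and 36.0 CPM. There too Dram2 wt/wt replicate 2 was highest in Dcn and in the fibroblast marker sum (2057 CPM), and Dram2 ko/ko replicate 1 was lowest in both (576 CPM). In Myeloid cells Dcn was at 780 and 160 CPM in Dram2 wt/wt replicates 2 and 3 and at 284 and 607 CPM in Dram2 ko/ko replicates 2 and 3, with fibroblast markers at 4567, 2085, 4219 and 2234 CPM. The part of fibroblast RNA in these levels was not tested.

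Ogn did not follow the order of Dcn, Lum and Bgn. Its highest means were those of RPE (31.1 ± 11.5 CPM), Myeloid (30.6 ± 34.3, n = 4) and Fibroblast (24.7 ± 9.59), which overlapped. RPE cells had 17.9, 42.9 and 42.8 CPM (Dram2 wt/wt) and 38.6, 21.8 and 22.8 CPM (Dram2 ko/ko), above the Fibroblast level of the same sample in 5 of 6 samples. Of the 1259 Ogn UMIs in RPE cells 1 cell gave 42, and 476 of 1492 cells held at least 1. In these cells Bgn and Dcn were at a median of 0.110 and 0.0555 times their Fibroblast level, while Ogn was at 1.21 times. At 4000 UMIs per cell Ogn was seen in 8.51% ± 4.24 of RPE, 7.41% ± 2.81 of Fibroblast and 1.31% ± 1.96 of Pericyte-named cells (30.1%, 25.8% and 4.02% unthinned). In Myeloid cells 47 UMIs came from Dram2 wt/wt replicate 2, 18 of them from 1 cell, while the other 3 sums held 0, 3 and 13.

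Among fibroblasts, Ogn varied as much between samples as between types. Fibroblast cells had 16.0, 38.3 and 29.6 CPM (Dram2 wt/wt) and 16.5, 16.7 and 31.2 CPM (Dram2 ko/ko). Fibroblast proliferating cells had 7.18, 25.0 and 13.9 CPM and 8.16, 9.08 and 15.3 CPM, and Fibroblast 2 cells had 6.11, 19.0 and 9.61 CPM and 4.21, 5.55 and 12.7 CPM. Within each of the 6 samples the order was Fibroblast, Fibroblast proliferating, Fibroblast 2. Dram2 wt/wt replicates 2 and 3 and Dram2 ko/ko replicate 3 were the 3 highest samples in all 3 types, so samples of both genotypes lay in either range. Those 3 samples also held the largest shares of RPE cells, 11.7%, 3.52% and 14.8% against 1.46%, 3.18% and 1.53%. RPE markers in Fibroblast cells summed to 11.2, 6.21 and 7.62 CPM there and to 5.62, 5.86 and 7.04 CPM in the other samples. The part of RPE RNA in the Ogn level of fibroblasts was not tested. The genes most like Ogn over the 46 sums were Steap2 (0.843), Parm1 (0.826) and Lox (0.794), which encodes the enzyme lysyl oxidase that cross-links collagen.

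**Figure D2:**
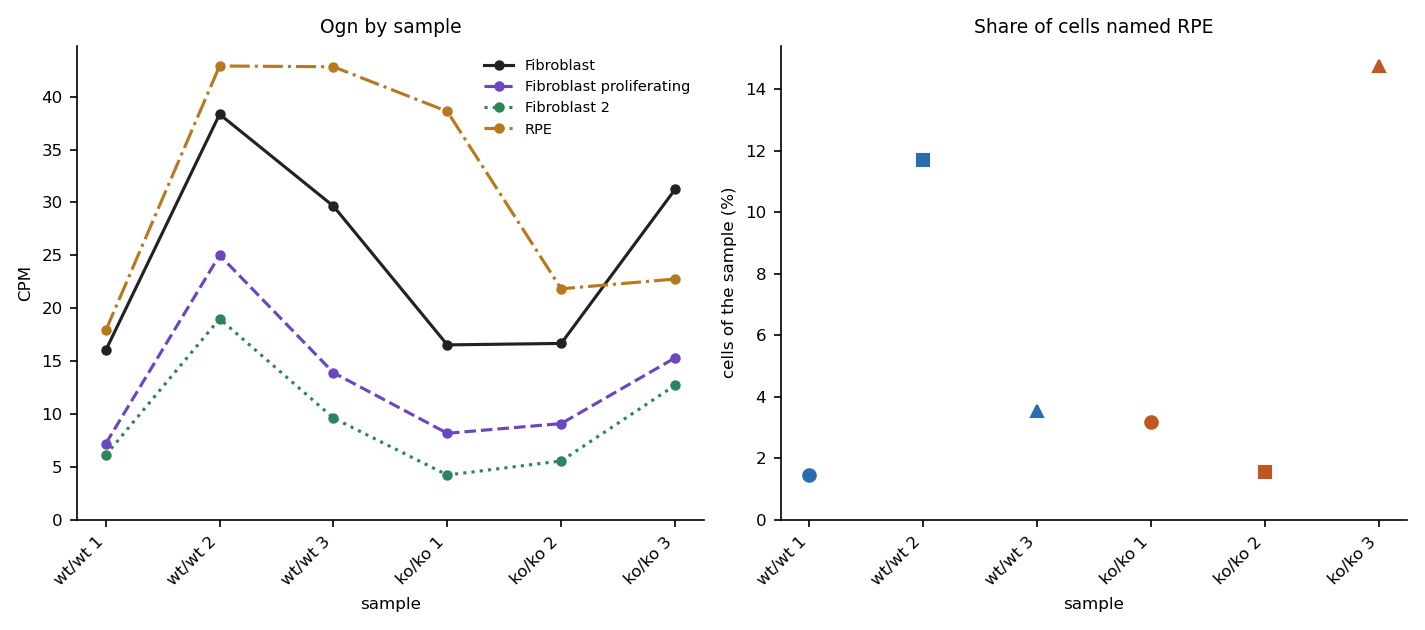
Left, level of Ogn (CPM) in 4 cell types in each sample, with lines joining the values of a type. Right, share of the cells of each sample named RPE (%). The 3 fibroblast lines keep their order in all 6 samples and are highest in Dram2 wt/wt replicate 2, where Fibroblast cells had 38.3 CPM.

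Fmod, Prelp, Aspn and Omd were at or near the limit of detection. Fmod, which in tendon guides collagen cross-linking, was highest in Pericyte-named cells, at 9.53, 20.3 and 13.1 CPM (Dram2 wt/wt) and 2.27, 0.659 and 18.6 CPM (Dram2 ko/ko). These values rest on 50 UMIs in 25 of 308 cells, of which 1 cell held 8. It was at 1.29 ± 1.05 CPM in Fibroblast and 0.845 ± 0.501 in Fibroblast proliferating cells, while Fibroblast 2 held 1 UMI of Fmod among 66970322. Endothelial cells had 0 of 3590813 UMIs, which allows a level of up to 0.835 CPM (3 UMIs, counting error only). In RPE cells it was found in Dram2 wt/wt replicate 2 (4.19 CPM) and Dram2 ko/ko replicate 3 (6.28 CPM), with 0.929 CPM in Dram2 ko/ko replicate 2 and 0 in the other 3 samples. The first 2 of these samples had the lowest RPE marker sums (511 and 297 CPM) and the highest sums of 5 proliferation markers (541 and 805 CPM) of the RPE cells.

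Prelp was at 8.07, 9.55 and 2.90 CPM in the Pericyte-named cells of Dram2 wt/wt and at 4.54, 3.95 and 8.26 CPM in those of Dram2 ko/ko samples, from 33 UMIs in 23 cells. In Endothelial cells it was at 61.7 CPM in Dram2 wt/wt replicate 2 and between 0 and 14.4 CPM in the others. That level came from 28 UMIs in 3 of 36 cells, 16 of them in 1 cell. In Fibroblast 2 it was at 2.32 ± 0.752 CPM, 149 UMIs spread over 138 cells, a median of 1.5 times the Fibroblast level and higher in 6 of 6 samples. Over the last 400 bases of Prelp transcripts, 38.5% of the 31-base words also occur in transcripts of another gene on either strand. Gm15851 overlaps Prelp on the other strand, and whether the count of Prelp is affected was not tested. For the other 7 genes the share was 0.

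Asporin and osteomodulin, a protein of bone matrix, were the rarest. Aspn and Omd did not pass 0.708 CPM in the mean of any cell type. The highest mean of Aspn, as of Ogn, was that of RPE (0.708 ± 0.649 CPM), from 16 UMIs. Aspn was at 0.365 ± 0.0328 CPM and Omd at 0.370 ± 0.0368 CPM in Fibroblast, from 133 and 136 UMIs. Fibroblast 2 held 7 UMIs of Aspn and 4 of Omd. Neither gene had a UMI in Fibroblast-like, Endothelial or Pericyte-named cells, which allows up to 0.455, 0.835 and 0.562 CPM. Nor had either a UMI in the 4 Myeloid sums (up to 1.79 CPM), but 2 UMIs of Aspn lay in the 9 Myeloid cells of Dram2 wt/wt replicate 1, too few cells for a sum. In Fibroblast the share of cells with a UMI, after thinning to 4000 UMIs, was 0.161% for Aspn and 0.153% for Omd (0.770% and 1.14% unthinned). Ogn, their neighbour on chromosome 13, was at 24.7 CPM in the same Fibroblast sums.

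**Figure D3:**
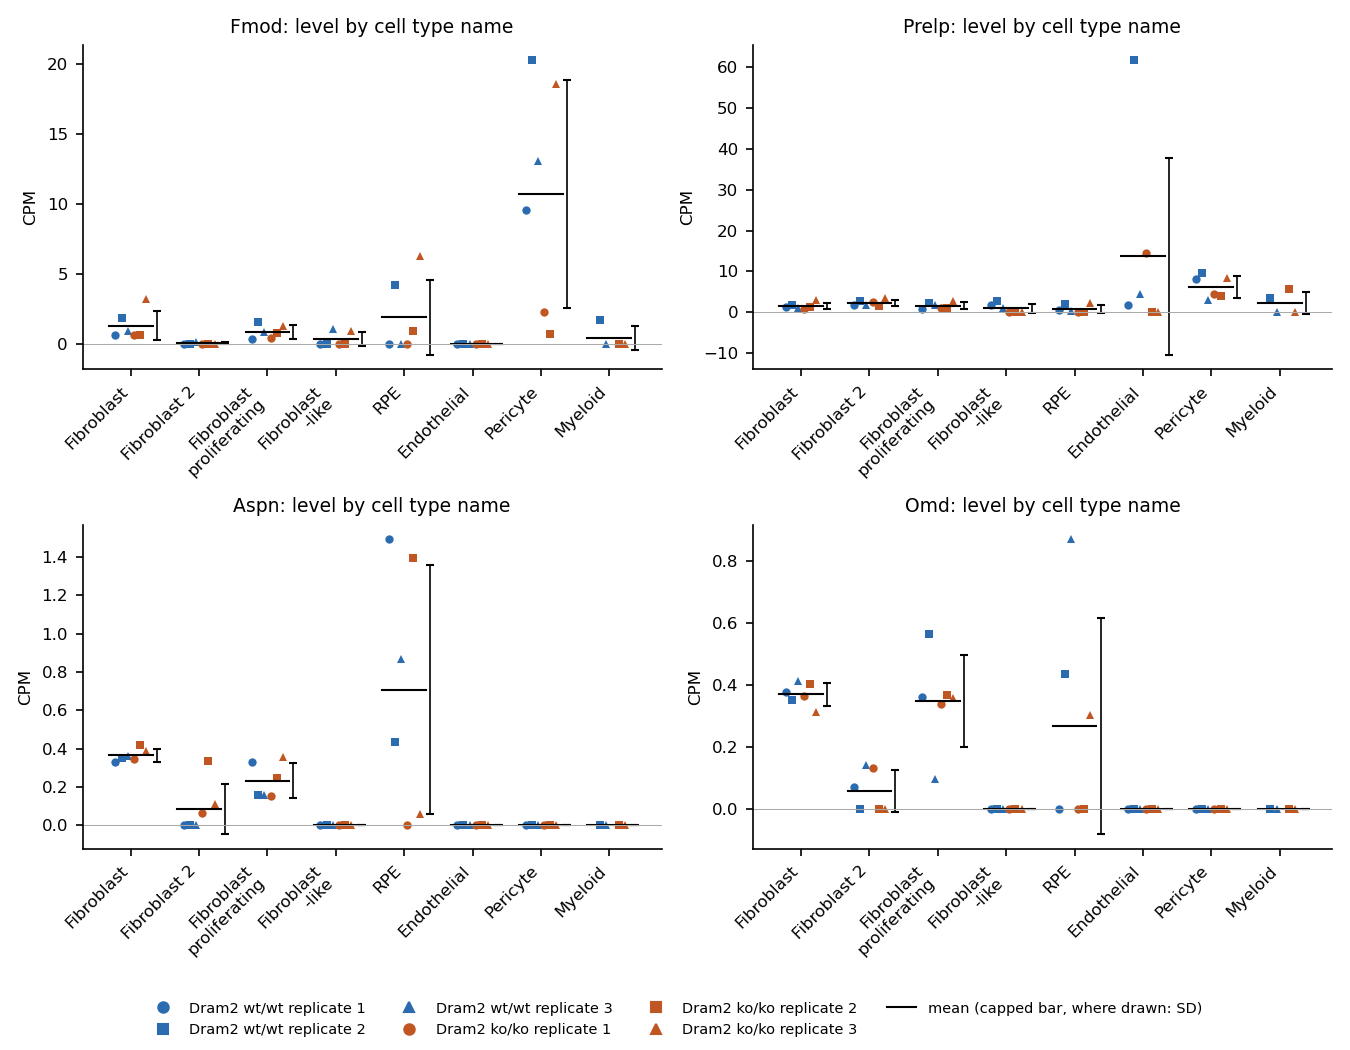
Level of Fmod, Prelp, Aspn and Omd (CPM) in the sums of 8 cell types, with a point per sample, a line at the mean and a capped bar of 1 SD over samples, 4 for Myeloid and 6 for the others. The axes differ between panels. Fmod is highest in Pericyte-named cells, 1 Endothelial sample reaches 61.7 CPM of Prelp, and Aspn and Omd stay under 1.5 CPM.

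The fibroblasts had been divided by the study into 9 sub-clusters, and Dcn and Lum were concentrated in 1 of them. Sub-cluster 3, of 3790 cells, had 2465 ± 341 CPM of Dcn and 368 ± 38.1 CPM of Lum, against 468 ± 43.4 and 46.7 ± 6.08 CPM in sub-cluster 1, the largest with 9965 cells. Each sample's level of either gene there lay above all levels in the other sub-clusters, the next being sub-cluster 9 with 767 ± 521 CPM of Dcn (93 cells, n = 3). Without Dram2 ko/ko replicate 3 the level of Dcn in sub-cluster 9 was 468 CPM. Sub-cluster 3 held 2964 cells named Fibroblast 2 and 811 cells named Fibroblast, and these differed in the other genes. The cells named Fibroblast had 2242 ± 159 CPM of Dcn, 616 ± 48.3 of Lum and 2408 ± 283 of Bgn. Those named Fibroblast 2 had 2567 ± 445 CPM of Dcn, 276 ± 26.6 of Lum and 1121 ± 100 of Bgn. High Dcn was thus shared by both groups, while the ranges of Lum and of Bgn lay apart and were higher in the cells named Fibroblast. Ogn was at 34.9 ± 24.9 and 9.42 ± 5.57 CPM in the same order.

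Bgn was highest in sub-clusters 6 (3153 ± 317 CPM, 477 cells) and 7 (3033 ± 504 CPM, 214 cells), apart from the 1939 ± 175 CPM of sub-cluster 1. Sub-cluster 6 had a median of 21% mitochondrial counts per cell, and without cells over 20% or with under 500 genes the level of Bgn in sub-cluster 6 was 3856 CPM. In sub-cluster 7 Dcn was low (205 ± 93.2 CPM), so the ratio of Bgn to Dcn reached 16.2. Lum was at 11.9 ± 7.77 CPM there. The same sub-cluster had the highest level of Aspn, 5.70 ± 3.99 CPM, from 27 UMIs in 14 cells of which 1 held 8, with 0 in Dram2 wt/wt replicate 2. Ogn was highest in sub-cluster 9, at 56.4 and 43.5 CPM in Dram2 wt/wt replicates 2 and 3 and 67.7 CPM in Dram2 ko/ko replicate 3. These samples had the most Ogn in the fibroblast types too, and the level was 1.39 to 2.24 times that of sub-cluster 1 in the same sample. Too few cells for a sum lay in Dram2 wt/wt replicate 1 (36.2 CPM) and Dram2 ko/ko replicates 1 and 2 (3.47 and 0 CPM). Sub-cluster 4 had the highest mean of Fmod, 3.01 ± 4.11 CPM, of which 76 of 120 UMIs came from Dram2 ko/ko replicate 3 and 30 from 1 of its cells. Sub-cluster 8, with a median of 91.1% mitochondrial counts, had the lowest levels of Dcn (28.4 CPM) and Bgn (158 CPM). CPM includes mitochondrial UMIs in the total, which lowers the level of every other gene there. The sums held 1 to 14 UMIs of Dcn and 9 to 43 of Bgn. The ratio of Bgn to Dcn, taken from 3 UMIs of Dcn up, was 3.07 in Dram2 ko/ko replicate 1 and 5.67 in Dram2 ko/ko replicate 3.

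**Figure D4:**
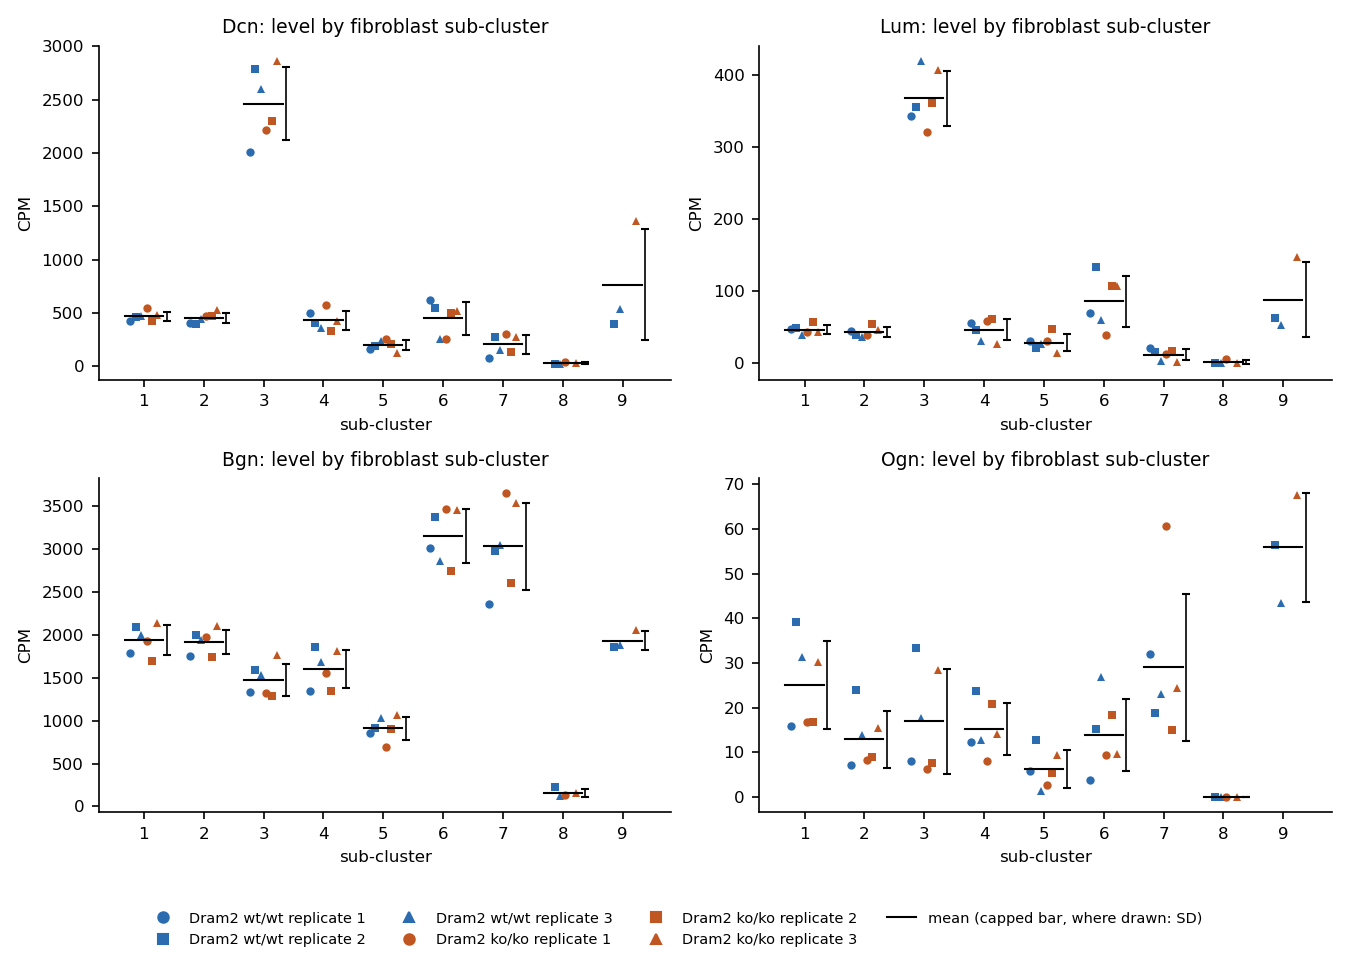
Level of Dcn, Lum, Bgn and Ogn (CPM) in the 9 fibroblast sub-clusters, with a point per sample holding 10 or more cells, a line at the mean and a capped bar of 1 SD. Dcn and Lum peak in sub-cluster 3, Bgn in sub-clusters 6 and 7 and Ogn in sub-cluster 9, which has points for only 3 samples.

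Whether the loss of Dram2 went with a change in these genes was tested on sums of UMIs per sample with voom-limma, adjusted over all genes tested by the Benjamini-Hochberg method and called at an adjusted p under 0.05. Positive log2 fold changes are higher in Dram2 ko/ko. None of the 8 genes was called in the whole sample, where 0% of 22580 genes were called (1583 at an unadjusted p under 0.05, 0 by edgeR and 378 by DESeq2, none of these 8). Dcn was at 660, 590 and 603 CPM (Dram2 wt/wt) and 820, 751 and 703 CPM (Dram2 ko/ko), so each Dram2 ko/ko sample lay above each Dram2 wt/wt sample, as in 4.2% of all genes tested. Its log2 fold change was 0.31 (SE 0.0908, adjusted p 0.303), and 0.37 (adjusted p 0.189) with batch as a covariate. In a whole sample, fewer cells of a type and less RNA per cell cannot be told apart.

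The other whole-sample values overlapped between genotypes. Lum was at 92.7, 68.1 and 66.9 CPM and 95.0, 109 and 80.3 CPM (log2 fold change 0.34, SE 0.162, adjusted p 0.791), and its log2 fold change was 0.46 with batch as a covariate and between 0.21 and 0.50 with a sample left out. Bgn was at 1625, 1826 and 1832 CPM and 1726, 1575 and 1803 CPM (-0.03, SE 0.0858, adjusted p 0.969). Ogn was at 11.9, 33.6 and 24.4 CPM and 12.5, 12.7 and 23.9 CPM (-0.43, SE 0.380, adjusted p 0.920), which was -0.74 with batch as a covariate and -0.13 without Dram2 wt/wt replicate 2. Those of Fmod, Prelp, Aspn and Omd lay between -0.15 and 0.12, with adjusted p of 0.934 or more.

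Fibroblast 2, the type richest in Dcn, held 12.6%, 5.99% and 5.77% (Dram2 wt/wt) and 15.4%, 13.4% and 8% (Dram2 ko/ko) of a sample's UMIs, and these shares overlapped. The types and sub-clusters were made from the same counts, Dcn included, so levels at a fixed makeup are descriptions, and the part of the makeup in the whole-sample difference was not tested. When each sample's own levels in the 8 types were weighted by 1 common set of UMI shares, Dcn was at 607, 706 and 686 CPM and 725, 675 and 807 CPM, and the genotypes overlapped. The difference was 141 CPM as counted (617 ± 37.1 against 758 ± 59.0 CPM, exact two-sided permutation p 0.1, which with 3 against 3 cannot be lower) and 69.1 CPM with the makeup held fixed (exact permutation p 0.3), the latter from 33.4 CPM without Dram2 ko/ko replicate 3 to 99.4 CPM without Dram2 ko/ko replicate 2. With sub-clusters and 4 other types as strata it was 30.9 CPM (exact permutation p 0.7), leaving out sub-cluster 8, which had no cells in Dram2 ko/ko replicate 2. For Lum the differences were 18.8 CPM as counted, 12.2 CPM with 8 types and 1.73 CPM with sub-clusters (exact permutation p 0.2, 0.2 and 0.8). Bgn differed by 2.21 CPM and Ogn by -5.67 CPM with 8 types (exact permutation p 1 and 0.7), and that of Ogn was -0.80 CPM without Dram2 wt/wt replicate 2 and -10.9 CPM without Dram2 wt/wt replicate 1.

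**Figure D5:**
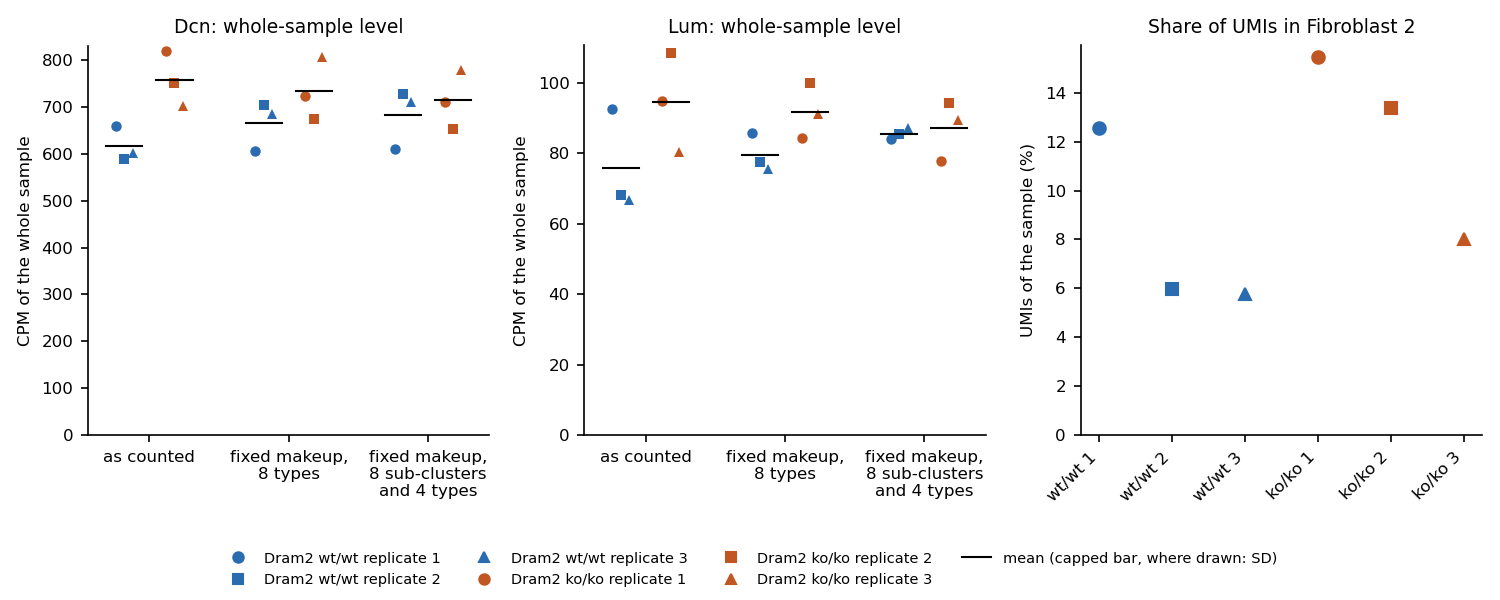
Whole-sample level (CPM) of Dcn (left) and Lum (middle) as counted and with the cell makeup held fixed over 8 cell types or over 8 sub-clusters and 4 types, a point per sample and a line at the mean of each genotype. Right, share of each sample's UMIs in Fibroblast 2 (%). The genotypes are apart for Dcn as counted and overlap with the makeup fixed. The types were made from the same counts, and the part of the makeup in the difference was not tested.

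Within Fibroblast cells all 8 genes passed the filter on low counts and none was called, where 0.00503% of 19886 genes, that is 1, were called. Dcn (log2 fold change 0.23, SE 0.0874, adjusted p 0.569) and Lum (0.33, SE 0.122, adjusted p 0.515) were higher in each Dram2 ko/ko sample than in each Dram2 wt/wt sample, as were 4.57% of the genes tested. In sub-cluster 1, the largest, the genotypes overlapped for both genes. Dcn was there at 426, 462 and 473 CPM (Dram2 wt/wt) and 545, 428 and 478 CPM (Dram2 ko/ko). Lum was there at 47.4, 48.8 and 39.7 CPM and 44.1, 57.3 and 43.1 CPM in the same order. Over all Fibroblast cells Bgn was at -0.01 (SE 0.107, adjusted p 0.990) and Ogn at -0.36 (SE 0.339, adjusted p 0.934), the latter at -0.67 (adjusted p 0.490) with batch as a covariate and -0.10 without Dram2 wt/wt replicate 2. In Fibroblast 2 5 of the 8 genes were tested and none called, against 0.222% of 14882 genes. Dcn (0.02, SE 0.168), Lum (0.04, SE 0.119) and Bgn (0.04, SE 0.110) had adjusted p of 0.964 or more there (-0.15, 0.02 and -0.07 with batch as a covariate), and Ogn was at -0.60 (SE 0.434, adjusted p 0.887), between -1.10 and -0.23 with a sample left out. In Fibroblast proliferating cells 7 genes were tested and none called, against 0.624% of 18113 genes. Dcn was at 400, 411 and 440 CPM and 461, 483 and 525 CPM (0.23, SE 0.0829, adjusted p 0.505), ranges apart as in 4.76% of the genes tested.

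The other types added no call among these genes. In Fibroblast-like cells Dcn was at 110, 82.8 and 107 CPM and 155, 143 and 112 CPM (0.47, SE 0.189, adjusted p 0.969), every Dram2 ko/ko sample above every Dram2 wt/wt sample, as in 2.34% of the genes tested, and was at 0.27 without Dram2 ko/ko replicate 1. Of 7218 genes 0% were called (voom-limma, 367 at an unadjusted p under 0.05, 0 by edgeR, 23 by DESeq2). In RPE cells Dcn (-0.96, SE 0.544), Lum (-1.21, SE 0.805), Bgn (-0.53, SE 0.707) and Ogn (-0.45, SE 0.343) had adjusted p of 1.00, and 0% of 12333 genes were called (573 at an unadjusted p under 0.05, 0 by edgeR, 20 by DESeq2). Without Dram2 wt/wt replicate 2 the RPE values were -0.38 for Dcn, 0.15 for Lum, -0.07 for Bgn and -0.26 for Ogn. In Endothelial cells Dcn was at -1.96 (SE 0.957, adjusted p 0.942), and 0% of 6682 genes were called (350 at an unadjusted p under 0.05, 0 by edgeR, 13 by DESeq2). In Pericyte-named and Myeloid cells Dcn was at -0.30 (SE 1.00) and 0.28 (SE 0.561), where 0.0118% of 8454 and 0.0296% of 6747 genes were called. The Pericyte-named levels were 33.0, 105 and 30.5 CPM (Dram2 wt/wt) and 4.54, 136 and 2.06 CPM (Dram2 ko/ko). Those of Dram2 ko/ko rest on 2, 206 and 1 UMIs. Without Dram2 wt/wt replicate 2, which left 1 Dram2 wt/wt sample assumed to vary like the others, Dcn in Myeloid cells was at 1.43 with an adjusted p of 0.00569, while 0.671% of 7001 genes were called in that fit.

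No difference of the genotype effect from that in Fibroblast was called for any of the 8 genes in Fibroblast 2, Fibroblast proliferating or RPE, the 3 types tested. Relative to Fibroblast, the difference of the log2 fold change of Dcn was -0.18 in Fibroblast 2 (SE 0.145, adjusted p 0.944), -0.00 in Fibroblast proliferating (SE 0.0627, adjusted p 1.00) and -1.24 in RPE (SE 0.527, adjusted p 1.00, and -0.47 without Dram2 wt/wt replicate 2). For Lum it was -0.25, -0.10 and -1.50, and for Bgn 0.07, 0.04 and -0.26, with adjusted p of 0.933 or more. With a sample left out, that of Lum in Fibroblast proliferating lay between -0.17 and -0.012, and that of Bgn in Fibroblast 2 between 0.016 and 0.16. The tests were interaction terms of voom-limma in which each sample had its own term.

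Other genes of the same matrix were examined as fixed lists. In the whole sample none of their tested genes was called between genotypes by voom-limma, with 1 gene, a collagen or cross-linking enzyme, at an unadjusted p under 0.05, where 0 of 22580 genes were called and 1583 had such a p. None was called in any cell type, where 0% to 0.624% of all genes were. Of 10 further small leucine-rich proteoglycans 7 were tested, with a median log2 fold change of 0.04 against 0.00 over all genes. Tsku, a secreted inhibitor of several growth factors, was the most abundant of them at 18.6 ± 2.14 CPM. Optc, which lies beside Prelp, was at 44.4 CPM in RPE cells of Dram2 wt/wt replicate 2 and 107 CPM in those of Dram2 ko/ko replicate 3, and at 1.49 CPM or less in the other 4 samples. Those were the 2 samples with the most Fmod in RPE cells. Epyc, a neighbour of Dcn and Lum, was at 5.21 ± 3.35 CPM in Fibroblast 2 and 1.89 ± 0.467 CPM in Fibroblast.

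For enzymes that build chondroitin and dermatan sulfate chains, 22 of 23 were tested with a median of -0.02. The most abundant were Dse (62.6 CPM, log2 fold change -0.05), the epimerase that turns chondroitin into dermatan sulfate, B3gat3 (57.0 CPM, 0.01) and Chpf (46.3 CPM, -0.12). All 7 keratan sulfate enzymes were tested with a median of 0.13, led by Chst2 (56.5 CPM, 0.12), B4galt1 (53.2 CPM, -0.17) and B3gnt2 (44.7 CPM, 0.17). These chains are added after translation, so the RNA of the core genes does not measure them.

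Collagens and cross-linking enzymes, the partners of these proteoglycans, were tested in 19 of 19 cases with a median of -0.05, and 3 were fitted above 0. Col5a2 (929 CPM, -0.04), Lox (917 CPM, -0.05) and Col1a1 (601 CPM, -0.16) led this list. Of 11 proteases that cut these proteins or collagen propeptides, or enhance that cut, 10 were tested with a median of -0.01. Pcolce (193 CPM, -0.20), Mmp14 (180 CPM, 0.05) and Mmp2 (152 CPM, -0.17) were the most abundant. Of 23 ligands and receptors bound by these proteoglycans 22 were tested with a median of -0.05, led by the integrin subunit Itgb1 (1505 CPM, 0.03), the hyaluronan receptor Cd44 (505 CPM, -0.07) and the endocytic receptor Lrp1 (290 CPM, -0.13).

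Over the 46 sums, the genes most like Bgn were Tfpi (0.922), Ccdc68 (0.920) and Tmem173 (0.917). For Fmod they were Lgr6 (0.836), Adamts5 (0.826), a protease that cuts aggrecan, and Zfp469 (0.824). For Aspn they were Atp1b1 (0.738), Txnrd1 (0.737) and Paqr9 (0.709), and for Omd Adgra3 (0.713), Ergic1 (0.682) and Tnc (0.677). For Prelp they were Btbd2 (0.669), Pofut2 (0.662) and Pcdhga6 (0.650), and the values of Fmod, Aspn, Omd and Prelp rest on few UMIs. Between the 8 genes themselves r was 0.946 for Dcn and Lum, 0.798 for Dcn and Bgn and 0.428 for Dcn and Ogn, while Ogn had 0.466 with Aspn and 0.512 with Omd, and that of Dcn with Fmod was -0.35.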

How the data were processed

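The authors deposited 1 table of raw UMI counts per gene and cell, made with Cell Ranger (3.1.0 per the submitters' processing notes) on GRCm38 with exons only, and 1 table of cell annotations with sample, genotype, batch, cell type and fibroblast sub-cluster. The 10x Genomics 3′ chemistry was used. Cell types came from the authors' Seurat clustering of log-normalised counts integrated across batches. The authors' filter on cells was not given in the sources used here. All deposited cells were used, and no doublets were called. Cell barcodes shared between libraries could not be counted, since the table names cells without barcodes.

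Of 52636 gene identifiers 52403 had a symbol in GENCODE M21. Counts were summed per sample, cell type and sub-cluster (10 or more cells) and compared between genotypes by voom-limma (limma 3.58.1, TMM factors and filterByExpr of edgeR 4.0.16, R 4.3.3), without covariates, as the study's method names no covariate. Fixed-makeup levels had no minimum number of cells and were compared by exact two-sided permutation tests. Alternatives were edgeR's quasi-likelihood test, DESeq2 1.42.0, its size factors, library size alone, no filter, batch as a covariate, the replicate number as a block, a filter of cells (at least 500 genes, at most 20% mitochondrial counts, which removed 1.84% of cells), per-cell means of CPM, thinning to 8000 UMIs and each sample left out. Batch as a covariate is in effect the fit without Dram2 ko/ko replicate 3, the only sample of batch 2, and so no separate alternative. The scripts were tested on simulated data. Named were the 8 genes, the 3 genes most like each, and the 3 most abundant genes of each list. The 8 genes and the lists were chosen with earlier results of these data known. Intervals and limits cover counting error only, and totals of 96808998 to 122746184 UMIs per sample set the depth. The replicate numbers were checked for pairing: same-numbered samples had correlations of deviations of 0.0987, -0.429 and 0.0280, so they were not treated as pairs. These are whole-sample values. Between differently numbered samples of the 2 genotypes the correlations ran from -0.441 to 0.485.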

Additional observations from a re-analysis of the deposited data

How the results depend on the processing

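Alternative log2 fold changes were counted for the 8 genes in the whole sample. For Dcn, Lum, Bgn and Ogn they were also counted, where tested, in Fibroblast, Fibroblast 2, Fibroblast proliferating, Fibroblast-like and RPE. Endothelial, Pericyte-named and Myeloid fits were not among them. Of these 378 values 339 kept their direction and their side of the threshold, and 39 changed sign, none of which was called in either case. Dcn in the whole sample stayed between 0.25 and 0.37 over 14 alternatives, with adjusted p from 0.141 to 0.917 and 0.625 with the replicate block. In the whole sample Fmod changed sign to 0.25 with edgeR, 0.26 with DESeq2 and 0.079 with the replicate block, Prelp to -0.27 with batch, and Aspn to -0.010 with library size alone, -0.00061 without a filter, -0.00076 with batch and -0.0097 with the cell filter. Bgn changed sign in Fibroblast to 0.0071 with DESeq2 and 0.0047 with its size factors, in Fibroblast-like to 0.019 with edgeR and 0.018 with DESeq2, and with batch to -0.065 in Fibroblast 2 and -0.029 in Fibroblast proliferating, and Dcn to -0.15 in Fibroblast 2. With the makeup held fixed over sub-clusters the difference of Bgn was -14.8 CPM. Leaving out each sample in turn gave, in the whole sample, -0.89 to 0.46 for Fmod, -0.27 to 0.38 for Prelp, -0.18 to 0.17 for Aspn, 0.21 to 0.50 for Lum and -0.84 to -0.13 for Ogn. For Bgn it gave -0.080 to 0.071 in Fibroblast, -0.054 to 0.10 in Fibroblast 2, -0.022 to 0.10 in Fibroblast proliferating, -0.26 to 0.16 in Fibroblast-like, -1.19 to 0.22 in RPE and -98.2 to 98.6 CPM with the makeup fixed, where Dcn ranged from 33.4 to 99.4 CPM and Ogn from -10.9 to -0.80 CPM. It gave -0.13 to 0.13 for Dcn and -0.028 to 0.15 for Lum in Fibroblast 2, -1.85 to 0.15 for Lum, -1.44 to -0.38 for Dcn and -0.69 to -0.18 for Ogn in RPE, -0.70 to -0.10 for Ogn in Fibroblast, -1.10 to -0.23 for Ogn in Fibroblast 2, 0.088 to 0.35 for Lum in Fibroblast proliferating, 0.27 to 0.58 for Dcn and 0.14 to 0.67 for Lum in Fibroblast-like and -0.85 to 0.048 for Ogn in Fibroblast proliferating. The differences of effects from Fibroblast ranged from -0.35 to 0.024 (Dcn), -0.45 to -0.042 (Lum) and -0.43 to -0.053 (Ogn) in Fibroblast 2, from -0.064 to 0.12 (Dcn) and -0.21 to 0.13 (Ogn) in Fibroblast proliferating, and from -1.87 to -0.47 (Dcn), -1.99 to 0.048 (Lum), -1.18 to 0.27 (Bgn) and -0.53 to 0.66 (Ogn) in RPE. The number of the 8 genes called was 0 under every alternative except 1, Myeloid without Dram2 wt/wt replicate 2 (range 0 to 1). Counts over all genes moved more: with 0 called in the whole sample, DESeq2 called 378, batch as a covariate 118 and samples left out 0 to 242, and the corresponding counts were 1, 320, 87 and 0 to 234 in Fibroblast, 33, 168, 49 and 0 to 121 in Fibroblast 2 and 113, 320, 184 and 0 to 290 in Fibroblast proliferating. The cause was not tested. With a sample left out they were 0 to 85 in Fibroblast-like (0 called with all samples), 0 to 21 in Pericyte-named (1), 6 to 83 in Myeloid (2), 0 to 3 in Endothelial (0) and 0 in RPE (0). Without a filter on low counts 151 were called for Fibroblast, 71 for Fibroblast 2, 202 for Fibroblast proliferating, 20 for Fibroblast-like and 59 for Myeloid sums. With edgeR 11 were called in Fibroblast 2, 62 in Fibroblast proliferating and 10 in Myeloid, and with library size alone 8 in Fibroblast 2. With the replicate block they were 0, 0, 2 and 0 in the first 4 comparisons, 32 in Myeloid and 0 in the others, while same-numbered samples did not deviate together. Of the 24 pairs of a gene and its most alike genes 4 were found again over the means of the 8 cell types, and that of Dcn and Lum, with r 0.965, was not. Shares of cells with a UMI depended on the depth of thinning. At 8000 UMIs Dcn was seen in 91.9% of Fibroblast 2, 60.5% of Fibroblast and 13.9% of RPE cells. At 4000 UMIs these shares were 85.5%, 48.8% and 9.77%. Bgn was seen in 44.9% of RPE cells at 8000 UMIs and in 35.4% at 4000. Depth limits Fmod, Prelp, Aspn and Omd, which had 200 to 1139 UMIs in all.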
